A study of Mus musculus with 39 samples.

Results

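Imprinted genes are genes of which mostly a single parental copy is transcribed. The account covers 40 of them, chosen by symbol from a fixed list, out of 20981 genes in a table of reprogramming cells, 20875 in a table of pluripotent lines, 20354 in a table of germ cell induction, 17993 in a table that sets embryonic stem cells beside granulosa cells and fibroblasts, and 30849 in a table of fibroblasts alone. All 40 were listed in the tables of reprogramming cells, of lines and of fibroblasts alone. The other tables held 33, without the noncoding H19, Meg3, Rian, Mirg, Kcnq1ot1, Airn and Peg13. By textbook knowledge 25 members were classed as expressed from the paternal copy and 13 from the maternal copy. The other 2 (Grb10 and Gnas) were kept apart because the active copy varies with tissue or transcript. The classes are fixed labels, and the active copy of other members may vary likewise. Below, "paternally expressed" and "maternally expressed" name these classes, and whether a member follows its class in these cells was not measured. The 40 members fall into 19 domains, and 17 members lie on chromosome 7.

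The study sequenced RNA of 39 mouse libraries of strain C57BL6/CBA along a route that leads from granulosa cells (GC), which surround the oocyte, over pluripotent lines to germ cells. Reprogramming cells were taken at day 28 with 7 mM crotonic acid (CA) given from day 16 (28D+CA), at day 28 without it (28D) and at day 16 (16D, also called XEN-like cells), with 2 libraries each. The pluripotent lines derived from granulosa cells, gPSC lines 2, 4, 10, 11, 15 and 16, gave 1 library each and stand beside 1 GC library, and another table holds 2 libraries of an ES line with 1 GC and 1 mouse embryonic fibroblast (MEF) library. The induction table has 3 libraries each of a female ES line (ESC) and gPSC line 4 (gPSC4), of both after 2 days as epiblast-like cells (EpiLC) and after 4 further days of induction towards germ cells (primordial germ cell-like cells, PGCLC), and of germ cells from E12.5 embryos (PGC). gPSC4 and ESC are each 1 line. The labels give neither the sex of the E12.5 embryos nor how germ cells were isolated, and they do not say whether replicates were separate cultures or animals, so that each p-value rests on variation among libraries, which may be technical.

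Levels are FPKM, fragments per kilobase of transcript and of sequenced depth, and the files hold totals of both parental copies: no value shows which copy was read, so loss or gain of an imprint was not measured. Libraries of the induction table held 6107304 to 25223994 assigned reads, and depth of the other tables is unknown. The next sums, of granulosa cell, pluripotency and germ cell markers, followed the labels, and markers of other cells are given further below. The sum of 8 granulosa cell markers was 5.26 to 10.97 FPKM in gPSC lines and 7883 and 6976 FPKM in the GC libraries, the sum of 8 pluripotency markers was 3376 to 4087 FPKM in gPSC lines, and the sum of 8 germ cell markers was 3889 to 3926 FPKM in PGC and 3545 to 3910 FPKM in PGCLC. A sum of 4 Y-linked genes was 2.90 to 4.59 FPKM in gPSC4, 0 to 1.01 FPKM in its EpiLC and 10.1 to 12.2 FPKM in its PGCLC. It was 5.28 to 5.59 FPKM in the ESC line labelled female, 0.568 to 1.35 FPKM in its EpiLC and 5.99 to 11.3 FPKM in its PGCLC, and 7.93 to 10.6 FPKM in PGC. Libraries labelled PGC, from embryos, and PGCLC, from culture, were very alike over all genes. Which is which rests on labels and column names, and whether each library holds the cells it is labelled with was not tested.

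An imprint is a methylation mark laid down in the germ line of a single parent at a control region, which after fertilization keeps the genes of its domain active on the other copy or on the marked copy. Zinc finger proteins such as ZFP57 bind the methylated hexamer of these regions and hold the mark while the rest of the genome is demethylated in the early embryo. In primordial germ cells the marks are erased, and many imprinted genes act on growth of the fetus and placenta.

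Promoters show the hexamer that ZFP57 reads. RefSeq windows from 250 bases before to 50 bases after a start (GRCm38.p6) were used for 33 members, with 51 windows. Impact was left out of the member windows, while the windows of all genes were not restricted in this way. The hexamer, TGCCGC or GCGGCA on the strand read, was present for 10 of these 33 members (30.3%), against 13.1% of all genes with a window, and in 21.6% of member windows against 11.6% of 32851 windows. The 10 were Zdbf2, Mest, Nap1l5, Nnat, Snrpn, Igf2 and Plagl1 of the paternal class, Meg3 and Zim1 of the maternal class, and Grb10. Member windows held a median of 13 CpG, against 7 in all windows. The sequences printed are the promoter of Phlda2, the member with the largest difference between germ cells and stem cells, which has no such hexamer, and those of 5 members with it that were called at a step of induction. Capitals mark the hexamer on either strand. The windows are chr7:143502475-143502774 (Phlda2, minus strand, inside the gene body annotated to 143503150), chr6:30737800-30738099 (Mest, plus), chr2:157559828-157560127 (Nnat, plus), chr6:58907077-58907376 (Nap1l5, minus), chr10:13090582-13090881 (Plagl1, plus) and chr1:63200108-63200407 (Zdbf2, plus, upstream of the gene body annotated from 63273265). For a member with several windows, the window with the most hexamers is printed. The other Zdbf2 window, chr1:63273019-63273318, spans the start of the annotated gene body and has 0 hexamers. A match is a description of these letters and no evidence of binding.
Phlda2: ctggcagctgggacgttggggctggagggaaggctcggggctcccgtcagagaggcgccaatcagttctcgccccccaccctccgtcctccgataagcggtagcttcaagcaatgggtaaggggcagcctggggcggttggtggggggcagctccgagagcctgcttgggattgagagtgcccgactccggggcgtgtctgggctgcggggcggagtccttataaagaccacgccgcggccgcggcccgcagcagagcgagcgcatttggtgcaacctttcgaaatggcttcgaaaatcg
Mest: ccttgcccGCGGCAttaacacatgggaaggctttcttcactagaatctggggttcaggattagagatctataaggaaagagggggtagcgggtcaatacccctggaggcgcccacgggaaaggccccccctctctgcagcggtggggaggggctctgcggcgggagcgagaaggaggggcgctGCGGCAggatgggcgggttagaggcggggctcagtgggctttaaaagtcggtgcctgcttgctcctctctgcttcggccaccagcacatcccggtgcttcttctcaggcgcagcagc
Nnat: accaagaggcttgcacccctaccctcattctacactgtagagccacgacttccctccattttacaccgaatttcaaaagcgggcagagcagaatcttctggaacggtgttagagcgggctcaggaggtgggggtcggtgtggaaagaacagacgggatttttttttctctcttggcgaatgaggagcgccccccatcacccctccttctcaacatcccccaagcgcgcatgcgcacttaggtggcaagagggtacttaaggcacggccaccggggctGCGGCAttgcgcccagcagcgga
Nap1l5: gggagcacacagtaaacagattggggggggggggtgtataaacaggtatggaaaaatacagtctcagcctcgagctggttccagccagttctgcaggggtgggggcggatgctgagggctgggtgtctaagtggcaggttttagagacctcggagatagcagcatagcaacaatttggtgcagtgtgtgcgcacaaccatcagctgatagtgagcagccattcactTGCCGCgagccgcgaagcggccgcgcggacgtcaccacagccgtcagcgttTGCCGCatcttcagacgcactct
Plagl1: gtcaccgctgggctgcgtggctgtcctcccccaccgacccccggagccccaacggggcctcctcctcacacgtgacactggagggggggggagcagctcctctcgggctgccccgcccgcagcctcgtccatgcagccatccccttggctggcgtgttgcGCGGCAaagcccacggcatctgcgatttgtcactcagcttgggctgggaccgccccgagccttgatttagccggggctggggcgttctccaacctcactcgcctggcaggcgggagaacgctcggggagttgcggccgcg
Zdbf2: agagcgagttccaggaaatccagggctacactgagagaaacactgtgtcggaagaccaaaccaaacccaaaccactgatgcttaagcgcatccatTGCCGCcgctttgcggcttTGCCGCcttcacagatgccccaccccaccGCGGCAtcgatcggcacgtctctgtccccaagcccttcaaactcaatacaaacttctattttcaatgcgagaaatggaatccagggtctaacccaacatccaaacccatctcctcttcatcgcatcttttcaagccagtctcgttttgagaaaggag

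In E12.5 PGC against the stem cells from which induction started (ESC and gPSC4 together), 14 members rose and 7 fell among the 32 tested, where 16.5% and 14.6% of 14059 genes rose and fell. "Rose" and "fell" are used of genes whose adjusted p was below 0.05 and whose difference on the log2(FPKM + 1) scale was 1 or more, and these are termed called. Of 9 maternally expressed members tested, 5 rose and none fell. Of 21 paternally expressed members, 9 rose and 7 fell. The median difference was 1.04 for the maternal class, 0.07 for the paternal class and 0.08 for all genes. Whether the classes differ was not tested. Rasgrf1, a Ras exchange factor, stayed at or below 0.111 FPKM in each library of this table and was not tested.

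Phlda2, a maternally expressed brake on placental growth (chr7:143501545-143503150, minus strand), had the largest rise. Its level was 1224, 1194 and 1203 FPKM in PGC, against 25.1, 26.2 and 34.9 FPKM in gPSC4 and 16.9, 19.3 and 19.7 FPKM in ESC. The groups were far apart and the 3 PGC libraries lay close together. The difference was 5.65 ± 0.12 log2 (SE, adjusted p = 4.35e-18, limma). Cdkn1c, the cell cycle inhibitor p57 of the same domain, was at 142, 50.9 and 97.04 FPKM in PGC, against 3.33, 9.88 and 12.8 FPKM in gPSC4 and 1.54, 2.94 and 3.11 FPKM in ESC. Its PGC libraries spread more widely than those of Phlda2 but did not overlap the stem cells (4.04 ± 0.47). Slc22a18, a transporter between these genes, rose by 1.77 ± 0.23, with 22.3 ± 0.72 FPKM in PGC and 5.89 ± 1.11 FPKM in stem cells (SD, n = 3 and 6). The trophoblast factor Ascl2 of the same domain averaged 6.70 and 10.8 FPKM in these groups and was not called. Asb4, part of ubiquitin ligase complexes, stood at 37.1, 39.2 and 31.5 FPKM in PGC, against 0.289 to 1.22 FPKM in gPSC4 and 0.977 to 2.45 FPKM in ESC (4.12 ± 0.25). Zim1, a zinc finger gene next to Peg3, was called at a low level of 0.927 to 1.93 FPKM in PGC and 0 to 0.610 FPKM in stem cells (1.04 ± 0.31). It reached 1 FPKM, the level needed for testing, only in PGC and PGCLC libraries. The call of Zim1 was lost under median-ratio scaling (0.99) and quantile normalization (0.93), and without PGC replicate 1 (0.95) or 2 (0.93), ESC replicate 2 (0.95) or gPSC4 replicate 3 (0.97).

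Among paternally expressed members, Peg12, a Frat family gene of the Snrpn domain, rose most, to 94.5, 109 and 104 FPKM in PGC, against 7.47, 6.24 and 6.78 FPKM in gPSC4 and 5.87, 5.55 and 5.82 FPKM in ESC (3.83 ± 0.13). Slc38a4, an amino acid transporter, was at 105, 122 and 124 FPKM in PGC, against 7.70 to 10.7 FPKM in gPSC4 and 11.1 to 12.9 FPKM in ESC (3.37 ± 0.09). The Notch ligand relative Dlk1 rose by 2.74 ± 0.23, with 6.91 to 7.91 FPKM in PGC and 0.0735 to 0.619 FPKM in stem cells. Ndn (1.83 ± 0.14), Usp29 (1.63 ± 0.27), Peg3 (1.56 ± 0.07), Igf2 (1.505 ± 0.22), Inpp5f (1.49 ± 0.18) and Nnat (1.01 ± 0.12) also rose. Nnat lay at the limit of 1 and fell short of it without ESC replicate 1 (0.98), without gPSC4 replicate 1 (0.95) and without PGC replicate 3 (0.96), and also under median-ratio scaling (0.92) and quantile normalization (0.99).

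The members that fell were all of the paternal class. Zdbf2, a zinc finger gene, has 3 hexamers in the promoter shown and 0 in its other window. It was at 1.42, 0.602 and 0.205 FPKM in PGC, against 17.6, 15.8 and 14.7 FPKM in gPSC4 and 16.6, 15.7 and 17.6 FPKM in ESC (-3.37 ± 0.19, adjusted p = 6.68e-12, limma). Impact, a regulator of the stress kinase GCN2, was at 69.4, 52.4 and 36.6 FPKM in PGC, against 206 to 272 FPKM in gPSC4 and 256 to 285 FPKM in ESC (-2.28 ± 0.14). Both had every PGC library below every stem cell library. Plagl1, a zinc finger growth regulator, differed by -1.73 ± 0.27, Nap1l5 by -1.28 ± 0.44 with overlapping libraries and no call without PGC replicate 1 (-0.85), the retrotransposon-derived genes Peg10 by -1.18 ± 0.24, and Rtl1 by -1.14 ± 0.18. Dio3, which inactivates thyroid hormone, had 3 reads over the 3 PGC libraries, against 121 over those of gPSC4 and 177 over those of ESC, and was called lower. Snrpn (555 ± 44.9 FPKM in PGC, 634 ± 37.7 in stem cells), Mest (a mean of 288 and 187 FPKM) and Grb10 (48.8 ± 1.66 and 30.9 ± 9.38) differed by less than 1 log2 (SD, n = 3 and 6), as did Igf2r, Ube3a, Ppp1r9a, Sgce, Magel2, Mkrn3 and Gnas.

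**Figure D1:**
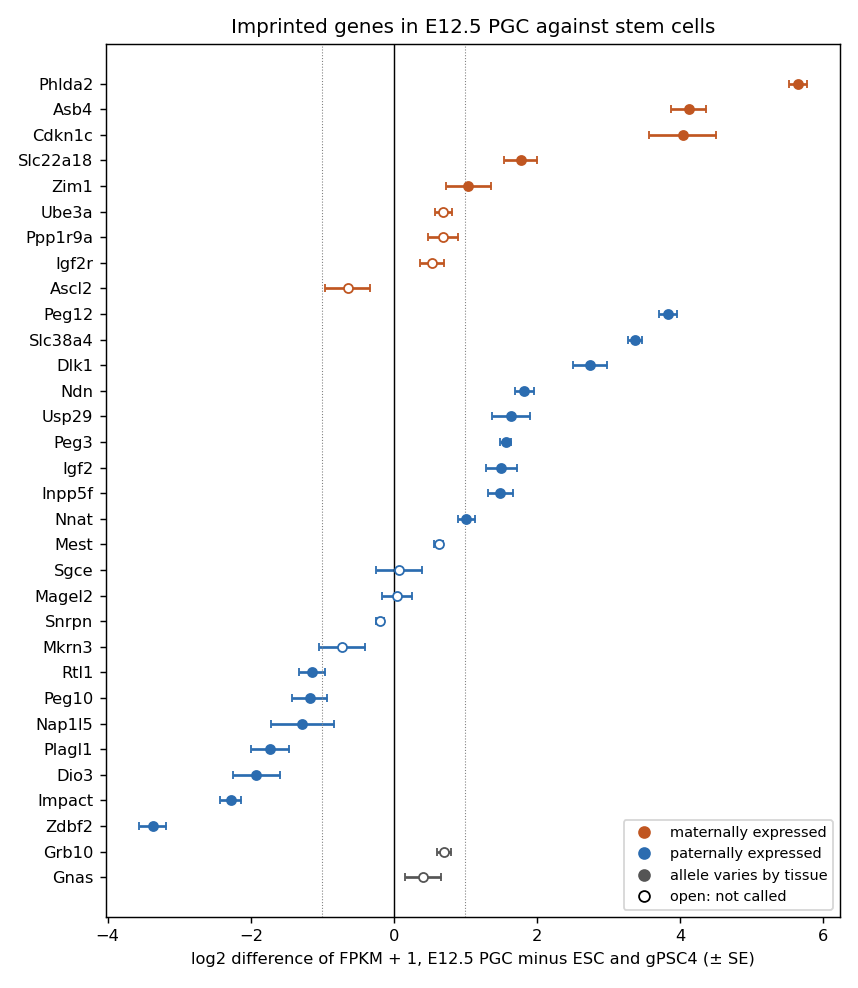
Log2 difference of FPKM + 1 (± SE) for the 32 members tested, E12.5 PGC (n = 3) minus ESC and gPSC4 (n = 6), by expressed allele; dotted lines mark a difference of 1 and open symbols members not called. Maternally expressed members range from Phlda2 at 5.65 to Ascl2 at -0.65, and paternally expressed members from Peg12 at 3.83 to Zdbf2 at -3.37.

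Markers of other cells moved with this comparison. The sum of 8 markers of gonad somatic cells was 204 to 213 FPKM in PGC and 9.50 to 14.7 FPKM in stem cells, and all 8 rose. The same sum was 166 to 199 FPKM in PGCLC, which were made in culture. Trophoblast markers summed to 25.7 to 28.7 FPKM in PGC and 7.16 to 13.3 FPKM in stem cells, where 4 of 5 tested rose and 1 fell, with Tpbpa and Elf5 listed at 0 in every PGC library. Granulosa cell markers, which share Nr5a1 with the gonad list, summed to 40.1 to 47.4 FPKM in PGC and 1.80 to 3.39 FPKM in stem cells, and 3 of 5 tested rose, with Fshr and Cyp19a1 listed at 0 in every PGC library. The sum of 12 fibroblast markers was 67.9 to 76.3 FPKM in PGC, against 281 to 307 FPKM in gPSC4 and 390 to 405 FPKM in ESC, and 9 of 11 tested fell. The part of these cells in the levels of imprinted genes was not tested, and in bulk RNA fewer cells of a type cannot be told apart from less RNA per cell.

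The stages in between show when the members moved. From stem cells to EpiLC, 13 of 32 members rose and 4 fell for gPSC4 (10.1% and 10.3% of all genes), and 10 rose and 4 fell for ESC (9.64% and 11.3%). All 14 members called in ESC were called in the same direction in gPSC4, where they make up 82.4% of 17. These comparisons have no library in common. The same overlap over all genes was not computed, so whether it is particular to members is unknown. Mest, an enzyme-like protein of mesoderm, was at 819, 811 and 758 FPKM in gPSC4-EpiLC, against 203, 205 and 181 FPKM in gPSC4. In the other origin it was at 647, 673 and 654 FPKM in ESC-EpiLC, against 179, 177 and 175 FPKM in ESC. All EpiLC libraries lay above all stem cell libraries, by 2.02 ± 0.06 log2 in gPSC4 and 1.89 ± 0.06 in ESC. Slc38a4 (2.90 ± 0.11 in gPSC4 and 2.32 ± 0.11 in ESC), Nap1l5 (2.49 ± 0.51 and 2.30 ± 0.51), Phlda2 (2.26 ± 0.14 and 2.29 ± 0.14), Nnat (1.95 ± 0.13 and 1.89 ± 0.13), Grb10 (1.70 ± 0.12 and 1.32 ± 0.12), Peg12 (1.32 ± 0.15 and 1.77 ± 0.15), Snrpn (1.25 ± 0.07 in each) and Inpp5f (1.22 ± 0.20 and 1.099 ± 0.20) rose in both origins. In ESC, the call of Inpp5f was lost without ESC replicate 3 (0.996) and that of Nap1l5 with a pseudocount of 0.1. Nap1l5 belongs to a nucleosome assembly family, Nnat encodes a small membrane protein, Snrpn a splicing protein and Grb10 an adaptor that dampens insulin signalling. Cdkn1c rose by 1.38 ± 0.54 in gPSC4 and 2.54 ± 0.54 in ESC. Its call in gPSC4 was lost in 4 of 6 fits that left out a library: without gPSC4 replicate 1 (0.88) or 2 (1.55), and without gPSC4-EpiLC replicate 2 (1.34) or 3 (1.24). By voom it was called in neither origin (adjusted p = 0.376 in gPSC4 and 0.149 in ESC).

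Plagl1 showed the largest fall at this step. It was at 0.504, 0.1004 and 2.06 FPKM in gPSC4-EpiLC, against 36.0, 28.5 and 27.1 FPKM in gPSC4, and at 0.767, 1.16 and 0.967 FPKM in ESC-EpiLC, against 35.3, 31.8 and 29.6 FPKM in ESC. No library of either EpiLC group came near the stem cells (-4.19 ± 0.31 and -4.08 ± 0.31). Igf2, the fetal growth factor, was at 5.46, 1.30 and 3.07 FPKM in gPSC4-EpiLC, against 33.8, 38.2 and 35.1 FPKM in gPSC4, and at 3.54, 6.01 and 4.29 FPKM in ESC-EpiLC, against 41.3, 41.6 and 42.5 FPKM in ESC (-3.22 ± 0.25 and -2.95 ± 0.25). Fibroblast markers moved with it: their sum was 19.4 to 20.1 FPKM in gPSC4-EpiLC and 19.9 to 30.7 FPKM in ESC-EpiLC, 10 and 11 of 11 tested fell, and their median difference was -2.32 and -2.89. Their part in the fall of Igf2 was not tested. Dio3 had no read in the 3 gPSC4-EpiLC libraries and was at least 12.6-fold lower than in gPSC4, counting 3 reads per library as the limit. In ESC-EpiLC it had 3 reads in all. Slc22a18 fell in both origins (-1.22 ± 0.27 and -1.50 ± 0.27), in gPSC4 not without gPSC4-EpiLC replicate 2 (-0.91). Peg3 differed by 1.18 ± 0.09 in gPSC4, where it was called, and by 0.90 ± 0.09 in ESC, short of the size limit (adjusted p = 5.21e-08). Dlk1 differed by 1.32 ± 0.27, called, and by 0.86 ± 0.27, not called (adjusted p = 0.0133). In ESC, Dlk1 was called with a pseudocount of 0.1 (1.78), without ESC-EpiLC replicate 2 (1.18) and by voom (2.18). Usp29 differed by 1.30 ± 0.31, called, and by 0.55 ± 0.31, not called (adjusted p = 0.158). Whether this step differs between origins was not tested. Igf2r (-0.59 and -0.76) and Zdbf2 (-0.75 and -0.67) had adjusted p-values under 0.05 below the size limit, and Peg10 was not called.

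**Figure D2:**
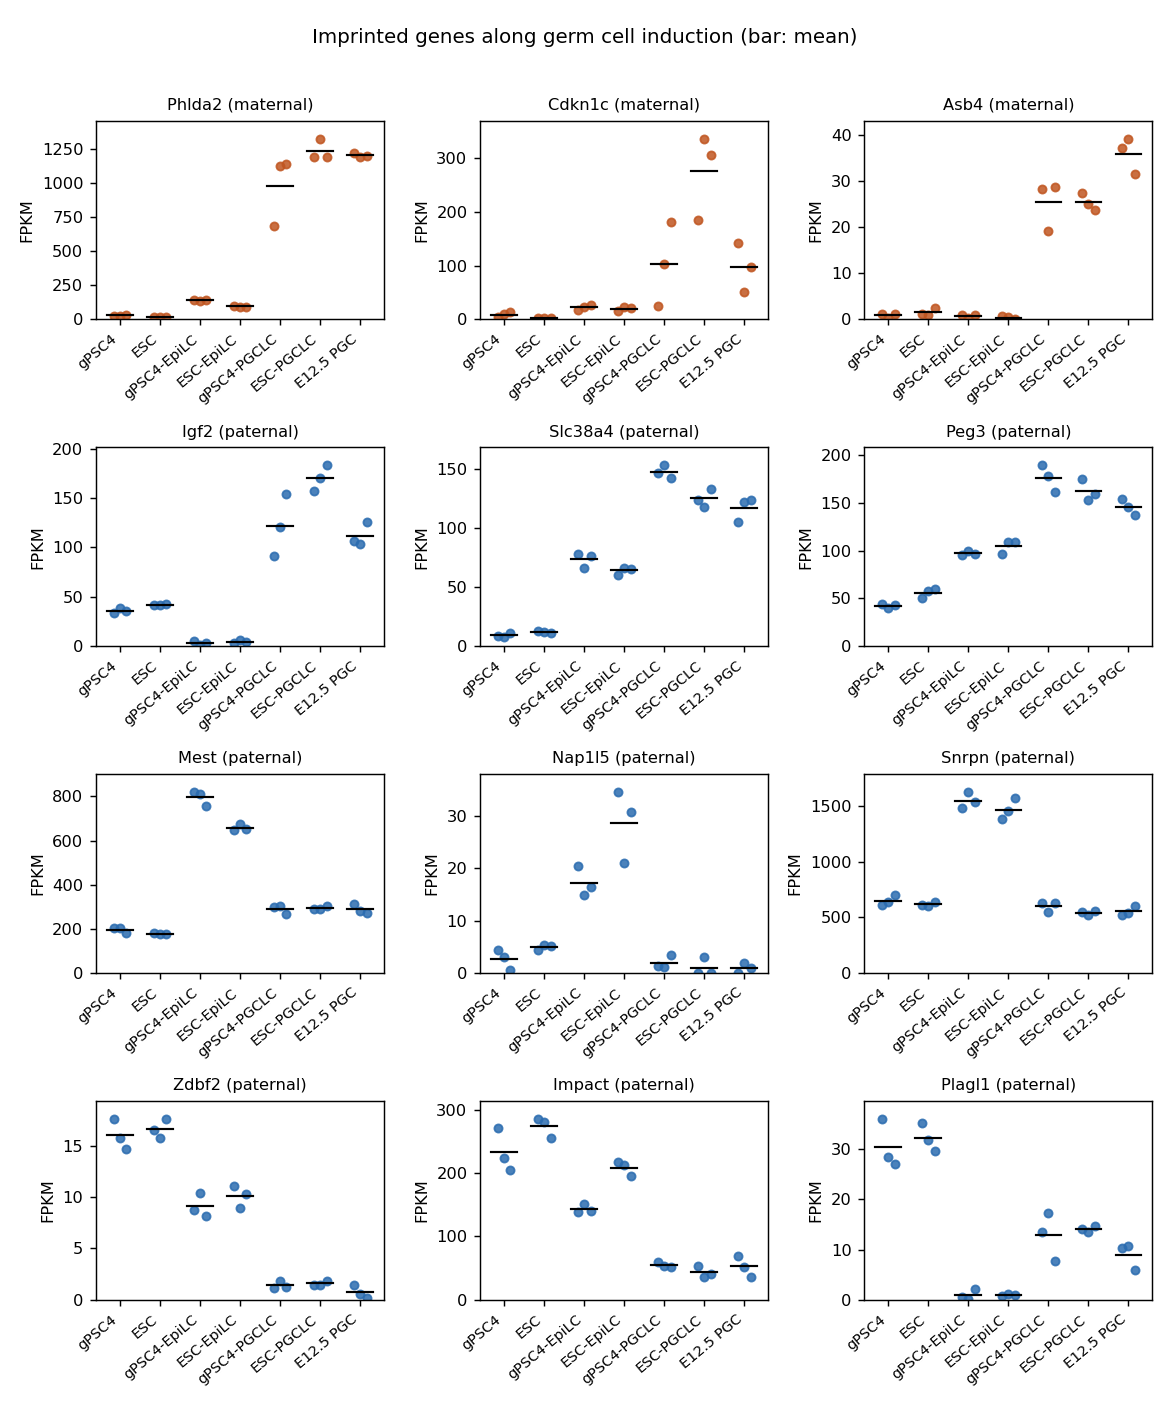
FPKM of 12 imprinted genes in each library of the induction table (points, n = 3 per group) with the group mean (bar), in the order of induction, with gPSC4 left of ESC at each stage. Phlda2 reaches 682 to 1327 FPKM in PGCLC, while Mest, Nap1l5 and Snrpn peak in EpiLC and Zdbf2 and Impact decline over EpiLC to PGCLC.

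From EpiLC to PGCLC, 10 members rose and 7 fell for gPSC4 (15.8% and 13.9% of all genes) and 12 rose and 6 fell for ESC (16.7% and 12.7%). In both origins 16 members were called in the same direction, which is 94.1% of those called in gPSC4 and 88.9% of those called in ESC. This overlap was not computed over all genes either. The maternal class had 5 members that rose in gPSC4 and 6 in ESC, of 9, and none that fell. The paternal class had 5 that rose in gPSC4 and 6 in ESC, and 6 that fell in each. Igf2 stood at 91.5, 121 and 154 FPKM in gPSC4-PGCLC and at 157, 170 and 183 FPKM in ESC-PGCLC, above its level in every stem cell and EpiLC library. It rose by 4.94 ± 0.25 and 4.95 ± 0.25 log2 over EpiLC. Fibroblast markers moved with this step: their sum was 68.5 to 85.9 FPKM in gPSC4-PGCLC, against 19.4 to 20.1 FPKM in gPSC4-EpiLC, and 73.5 to 85.4 FPKM in ESC-PGCLC, against 19.9 to 30.7 FPKM in ESC-EpiLC. Of 11 tested, 5 rose in gPSC4 and 4 in ESC, and 1 fell in each. Their part in the rise of Igf2 was not tested. In the stem cells, with a sum of 281 to 405 FPKM, Igf2 was at 33.8 to 42.5 FPKM. Phlda2 was at 682, 1124 and 1141 FPKM in gPSC4-PGCLC, against 140, 137 and 144 FPKM in gPSC4-EpiLC, and at 1195, 1327 and 1189 FPKM in ESC-PGCLC, against 99.9, 91.5 and 92.8 FPKM in ESC-EpiLC. Replicate 1 of gPSC4-PGCLC was the lowest of its group for Phlda2, Igf2 and Cdkn1c. Asb4 rose by 3.99 ± 0.28 in gPSC4 and 4.30 ± 0.28 in ESC, Slc22a18 by 2.95 ± 0.27 and 3.20 ± 0.27, and Plagl1 by 2.95 ± 0.31 in each. Igf2r, the receptor that clears Igf2, rose by 1.36 ± 0.19 and 1.07 ± 0.19, and Peg12, Ndn and Dlk1 rose in both. The call of Igf2r in ESC was lost under median-ratio scaling (0.97) and quantile normalization (0.89). Cdkn1c rose by 1.79 ± 0.54 in gPSC4, where its replicate 1 lay within the range of EpiLC and the call was lost without gPSC4-PGCLC replicate 3 (1.18) and by voom (adjusted p = 0.0522), and by 3.74 ± 0.54 in ESC.

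The members that fell at this step in both origins were Nap1l5, Zdbf2, Rtl1, Mest, Snrpn and Impact. Nap1l5 was at 1.27, 1.19 and 3.49 FPKM in gPSC4-PGCLC, against 20.4, 14.9 and 16.4 FPKM in gPSC4-EpiLC, and at 0, 3.01 and 0 FPKM in ESC-PGCLC, against 34.5, 20.9 and 30.7 FPKM in ESC-EpiLC. Its libraries did not overlap between stages (-2.68 ± 0.51 and -4.19 ± 0.51). Zdbf2 was at 1.12, 1.79 and 1.27 FPKM in gPSC4-PGCLC, against 8.72, 10.4 and 8.19 FPKM in gPSC4-EpiLC, and at 1.47, 1.46 and 1.85 FPKM in ESC-PGCLC, against 11.1, 8.91 and 10.3 FPKM in ESC-EpiLC (-2.08 ± 0.22 and -2.10 ± 0.22). Snrpn (-1.36 ± 0.07 and -1.43 ± 0.07) and Mest (-1.46 ± 0.06 and -1.16 ± 0.06) fell from the peak they reached in EpiLC. Grb10 (-0.65 and -0.89) and Nnat (-0.87 and -0.71) did so by less than 1 log2, and Peg3 differed by 0.85 and 0.63. Along with these genes, 7 of 8 gonad soma markers rose in each origin. Of 5 granulosa cell markers tested, 3 rose and 1 fell in each origin.

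PGC and PGCLC differed in few genes of any kind: 60 of 14059 genes were called against ESC-PGCLC (0.0854% higher, 0.341% lower) and 81 against gPSC4-PGCLC (0.185% higher, 0.391% lower). No member was called against ESC-PGCLC by limma, with 6 at an unadjusted p under 0.05, beside 1948 of all 14059 genes. Voom on recovered reads, which did not test Phlda2, called no member either. Against gPSC4-PGCLC a single member, Peg10, was called lower. Its level was 1.31, 0.920 and 0.813 FPKM in PGC, against 4.48, 4.37 and 2.28 FPKM in gPSC4-PGCLC (-1.20 ± 0.28, adjusted p = 0.0391). The groups did not overlap, but the call was lost in 5 of 6 fits that left out a library (without gPSC4-PGCLC replicate 1 or 2, or any PGC replicate; differences from -1.30 to -1.07) and by voom. Cdkn1c averaged 96.6 ± 45.4 FPKM in PGC, against 103 ± 78.7 FPKM in gPSC4-PGCLC and 276 ± 79.8 FPKM in ESC-PGCLC (SD, n = 3 each), and was not called in either comparison.

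The origin of the cells, gPSC4 or ESC, was compared at each stage. Among 32 members, limma called none at the stem cell stage (6 at an unadjusted p under 0.05), in EpiLC (5) or in PGCLC (10). At that unadjusted level stood 592, 1202 and 1973 of all 14059 genes. No member was called in the difference of the PGCLC step between origins (8, beside 1627 of all genes). Voom, which had no reads for Phlda2 and did not test it, called no member either. Of all 14059 genes, the share called higher and lower was 0% and 0.00711% at the stem cell stage, 0.0427% and 0.0285% in EpiLC, 0.0925% and 0.22% in PGCLC, and 0.0498% and 0.0356% for the step. Grb10 had an adjusted p of 0.0216 at the stem cell stage with a difference below 1. It was at 20.3, 25.8 and 21.8 FPKM in gPSC4, against 40.9, 40.8 and 35.6 FPKM in ESC (-0.76 ± 0.12). Every gPSC4 library lay below every ESC library. Cdkn1c had the largest difference between origins in stem cells and in PGCLC. It was at 3.33, 9.88 and 12.8 FPKM in gPSC4, against 1.54, 2.94 and 3.11 FPKM in ESC (1.33 ± 0.54, adjusted p = 1.00), and at 24.1, 103 and 181 FPKM in gPSC4-PGCLC, against 186, 337 and 306 FPKM in ESC-PGCLC (-1.78 ± 0.54, adjusted p = 0.134). In PGCLC the groups did not overlap, and without gPSC4-PGCLC replicate 3 the difference was -2.39 and called. Phlda2 differed by 0.59 ± 0.14 in stem cells, 0.56 ± 0.14 in EpiLC and -0.37 ± 0.14 in PGCLC, Peg3 by -0.39 ± 0.09 in stem cells, Gnas by -1.05 ± 0.29 in PGCLC, and none of these passed the adjusted threshold.

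The 6 gPSC lines were set against the GC library they stand beside, to ask how their transcripts compare with the cells of origin. Of 35 members tested, 15 were higher and 4 lower in the lines, where 21.8% and 17.7% of 13797 genes were. Testing asked for 1 FPKM in any 1 library. Of the higher members, H19, Slc38a4, Zdbf2, Phlda2, Cdkn1c, Dio3, Ascl2 and Slc22a18 lay below 1 FPKM in GC. They entered the test through the lines alone, where they are high. The members' median difference was 0.78, against 0.09 for all genes. GC had a single library, whose spread was assumed to be that of the lines. H19, the maternally expressed noncoding RNA beside Igf2, was at 352 FPKM in line 2, 217 in line 4, 346 in line 10, 177 in line 11, 194 in line 15 and 167 in line 16, against 0.860 FPKM in GC. Every line lay far above GC (6.96 ± 0.42, adjusted p = 4.94e-06). Igf2 followed with 126 to 275 FPKM in the lines, against 1.72 FPKM in GC (6.02 ± 0.43). The ratio of H19 to Igf2 was 1.22 to 1.41 in the lines, 0.5 in GC and 1.52 in the fibroblast library that lists both.

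Other members higher in the lines were Slc38a4 (21.1 to 38.8 against 0.160 FPKM in GC, 4.71 ± 0.28), Peg3 (17.0 to 48.8 against 1.19 FPKM, 3.65 ± 0.46), Mest (35.2 to 70.1 against 3.91 FPKM, 3.43 ± 0.30) and Zdbf2 (4.86 to 9.47 against 0.110 FPKM, 2.90 ± 0.29). Snrpn was at 91.3 to 131 FPKM in the lines and 15.4 FPKM in GC (2.78 ± 0.17), and Grb10 at 16.6 to 33.3 and 2.83 FPKM (2.65 ± 0.34). Phlda2 was at 6.44 to 17.1 FPKM in the lines and listed at 0 in GC. Cdkn1c (2.28 ± 0.24), Dio3 (2.27 ± 0.44), Ascl2 (2.19 ± 0.23), Impact (1.34 ± 0.19), Mirg (1.11 ± 0.22) and Slc22a18 (1.01 ± 0.27) were higher too, Slc22a18 not without line 2 (0.96) or line 10 (0.93) nor under median-ratio scaling (0.99) or quantile normalization (0.53). The lower members were the intronic noncoding Peg13 (1.82 to 2.82 FPKM in the lines and 10.4 FPKM in GC, -1.81 ± 0.19), the neuronal scaffold gene Ppp1r9a (-1.67 ± 0.13), Gnas (226 to 350 and 656 FPKM, -1.29 ± 0.25), which encodes the stimulatory G protein alpha subunit, and the ubiquitin ligase Ube3a (-1.06 ± 0.20), which was not called without line 15 (-0.98). Meg3 was at 64.6 to 140 FPKM in the lines and 129.8 FPKM in GC, Rian at 60.2 to 93.9 and 63.0 FPKM, and Dlk1 at 8.41 to 17.8 and 14.2 FPKM. The lines overlapped GC for these 3 genes of the Dlk1-Dio3 domain, and none of them was called. Mirg and Dio3 of the same domain were called higher, as given above. Igf2r, Peg10, Plagl1, Nnat, Airn and Kcnq1ot1 were not called. Magel2, Rasgrf1, Rtl1, Usp29 and Zim1 stayed at or below 0.570 FPKM in each library and were not tested.

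The lines differed among themselves. Lines 2 and 10 were the 2 highest for 13 of 32 members with 1 FPKM in a line, among them H19, Igf2, Igf2r, Meg3, Dlk1, Grb10, Gnas and Dio3, and the 2 lowest for 3 (Mest, Slc38a4 and Phlda2). Over 13117 genes these shares were 26.5% and 17.5%. Lines 2 and 10 also had the highest sums of 12 fibroblast markers, 2135 and 1922 FPKM, against 1022 to 1304 FPKM in the other 4 lines and 80.2 FPKM in GC. The sum of 4 Y-linked genes was 4.54 and 4.05 FPKM in lines 2 and 10, 2.26 to 2.95 FPKM in the other 4 lines and 0.07 FPKM in GC, while the fibroblast library listed alone had 22.5 FPKM. In the other table the fibroblast library and its GC library were listed at 0 for all 4 genes, beside 6.71 and 6.23 FPKM in ES. Granulosa cells are female, and the part of feeder fibroblasts in these levels was not tested. Set across separately normalized tables, the lines held 5.73 to 12.1% of the H19 level of that fibroblast library (2909 FPKM), 6.55 to 14.3% of its Igf2 level (1919 FPKM) and 3.84 to 8.13% of its Dlk1 level (219 FPKM). The median fibroblast marker stood at 12.7 to 25.0% in the same lines. Meg3 in the lines was at 106 to 229% and Rian at 110.1 to 172% of the fibroblast level. The other fibroblast library does not list H19, Meg3 or Rian. For Gnas the fibroblast libraries differed widely (4.65 FPKM listed alone and 823 FPKM beside ES), so shares taken across tables are uncertain.

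**Figure D3:**
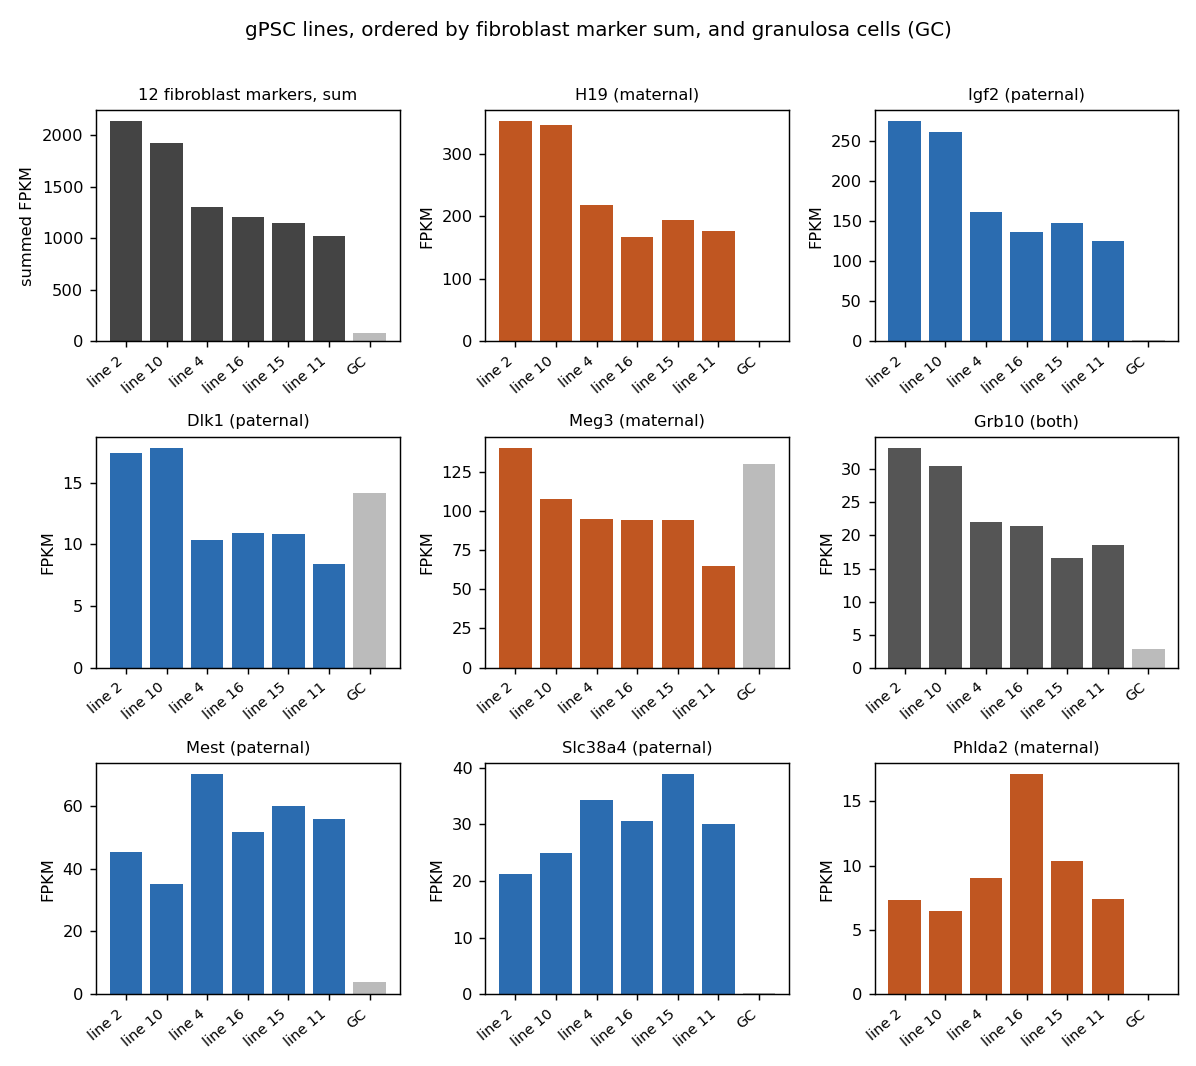
Summed FPKM of 12 fibroblast markers and FPKM of 8 imprinted genes in 6 gPSC lines (1 library each, ordered by the marker sum) and 1 GC library (grey, rightmost). H19, Igf2, Dlk1 and Grb10 are highest in lines 2 and 10, as is the marker sum (2135 and 1922 FPKM), whereas Mest and Slc38a4 are lowest there.

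A table with ES cells, granulosa cells and fibroblasts allowed the same check within a single normalization. Of the 33 members listed, 24 had at least 1 FPKM in MEF. The ES libraries held a median of 62.5% and 67.7% of the MEF level for these, against 9.09% and 8.51% for 12 fibroblast markers, whose shares ran from 2.15% to 26.3%. In both ES libraries 18 members had a share above that of every marker, among them Snrpn (80.9 and 84.9 FPKM in ES, 6.63 FPKM in MEF), Impact (71.1 and 70.4 FPKM in ES, 15.2 FPKM in MEF), Peg10 (36.1 and 35.8 FPKM in ES, 6.84 FPKM in MEF) and Mest (77.7 and 73.1 FPKM in ES, 88.1 FPKM in MEF). Dlk1, Igf2 and Zim1 had shares below the median marker. Igf2 was at 60.9 and 61.6 FPKM in ES, against 2.63 FPKM in GC and 2230 FPKM in MEF, which is 2.73% and 2.76% of MEF. Phlda2 was at 9.53 and 8.75 FPKM in ES and listed at 0 in GC and in MEF. These are single or paired libraries and no test was made.

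**Figure D4:**
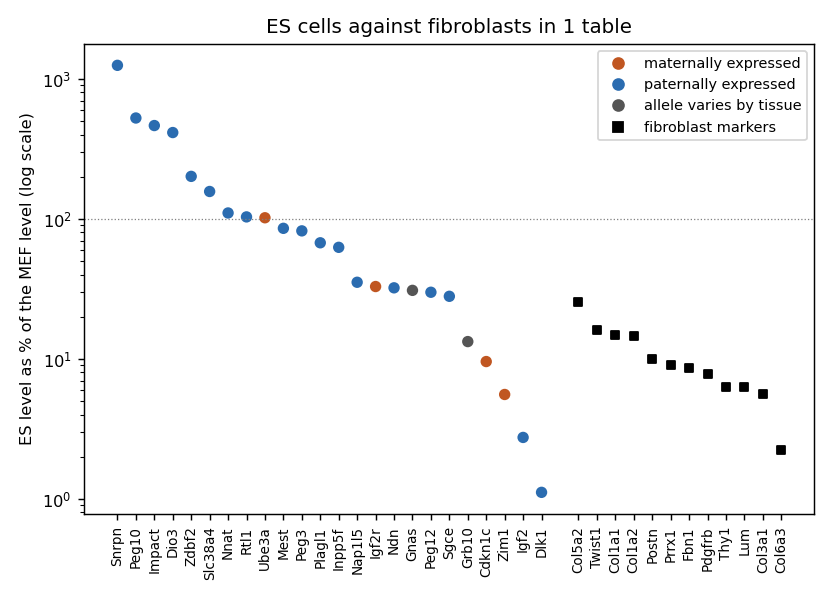
ES level as a percentage of the MEF level (mean of 2 ES libraries over 1 MEF library, log axis) for 24 imprinted genes with 1 FPKM or more in MEF (circles, by expressed allele) and 12 fibroblast markers (black squares, right). Snrpn is highest and Dlk1 lowest, and 18 members lie above every marker in both libraries.

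Crotonic acid, a short chain acid given from day 16, was compared with its absence at day 28. Of 31 members tested, 2 rose and 1 fell, where 0.852% and 1.2% of 13266 genes did. Igf2 was at 327 and 275 FPKM in 28D+CA cells, against 665 FPKM in each library of 28D cells. The groups did not overlap (-1.15 ± 0.12, adjusted p = 0.00888). Nnat was at 4.14 and 4.44 FPKM in 28D+CA cells, against 0.950 and 2.02 FPKM in 28D cells (1.12 ± 0.22, adjusted p = 0.0349), and Nap1l5 at 10.2 and 10.5 against 4.32 and 4.76 FPKM (1.04 ± 0.10, adjusted p = 0.00663). With any of the 4 libraries left out, no member was called, at differences of -1.27 to -1.02 for Igf2, 0.81 to 1.44 for Nnat and 0.98 to 1.09 for Nap1l5. Nnat also lost the call with a pseudocount of 0.1 (adjusted p = 0.0582) and with no filter (adjusted p = 0.0782).

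More members lay below the 28D cells without reaching the size limit. H19 was at 421 and 348 FPKM in 28D+CA cells, against 769 and 723 FPKM in 28D cells (-0.96 ± 0.15), and was called under quantile normalization (-1.08). Meg3 was at 32.3 and 31.1 FPKM in 28D+CA cells, against 54.4 and 54.9 FPKM in 28D cells (-0.77 ± 0.08). Dlk1 (-0.63), Ndn (-0.61), Rian (-0.58) and Mest (-0.50) likewise had adjusted p-values under 0.05 in limma. Differences were negative for 22 of 31 members, with a median of -0.26. They were also negative for 7967 of all 13266 genes, with a median of -0.05. The fibroblast marker sum was 390 to 398 FPKM in 28D+CA cells and 688 to 727 FPKM in 28D cells, and 10 of 11 tested markers had negative differences, none called. Y-linked genes were at or near 0 in both, 0.02 and at most 0.06 FPKM summed over 3 genes. The endoderm marker sum was 218 to 242 FPKM in 28D+CA cells and 362 to 363 FPKM in 28D cells, and 4 of 7 of these markers fell. The sum of 8 pluripotency markers was 84.5 to 87.8 FPKM in 28D+CA cells and 28.5 to 32.9 FPKM in 28D cells, where 4 of 8 rose, with a median difference of 0.94. Their part in the levels of imprinted genes was not tested. Peg3, Peg10, Snrpn, Cdkn1c, Igf2r, Airn, Plagl1, Grb10 and Impact were not called.

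**Figure D5:**
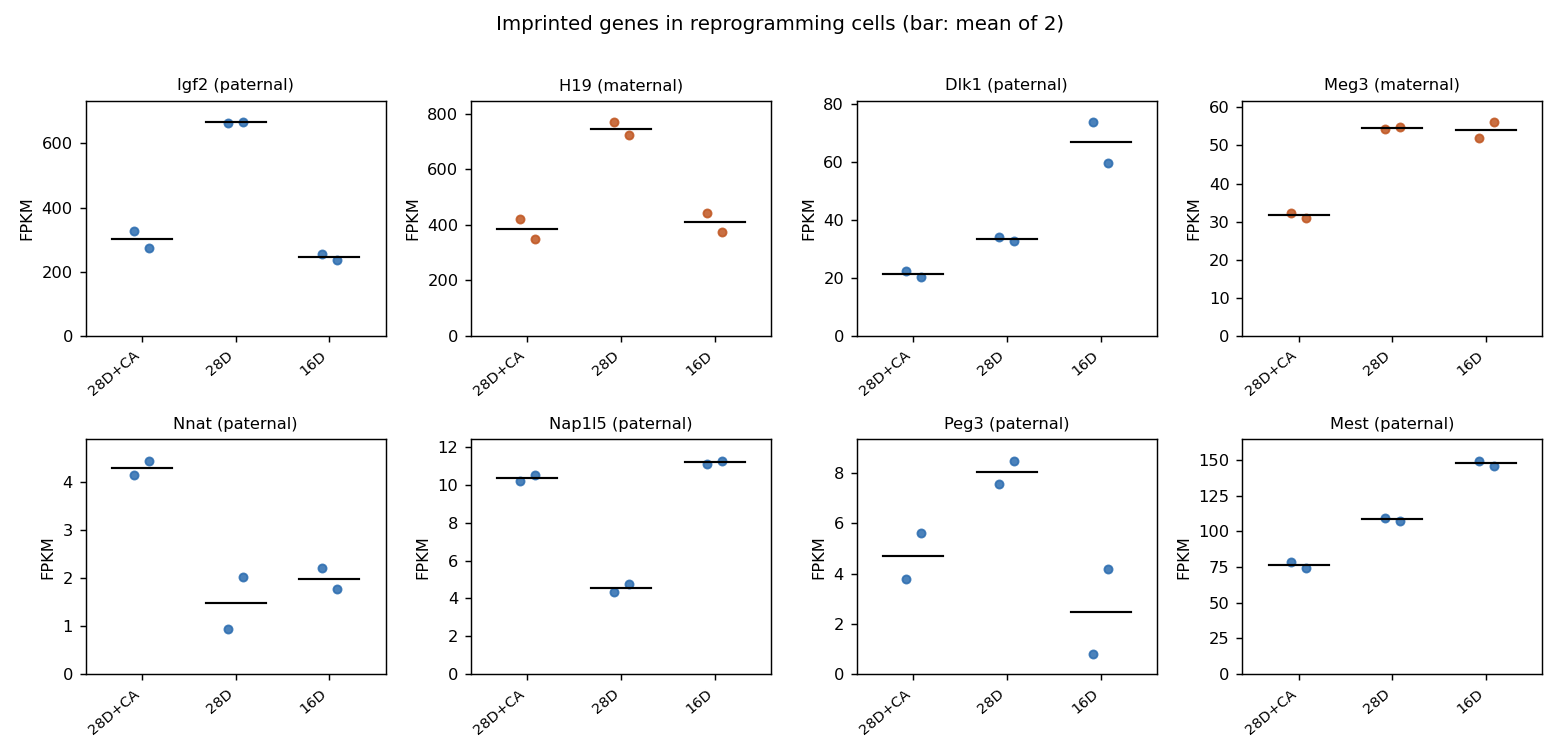
FPKM of 8 imprinted genes in the libraries of 28D+CA, 28D and 16D cells (points, n = 2 each) with the mean (bar). Igf2 and H19 are highest in 28D cells, Nap1l5 is lowest there, and Mest and Dlk1 are lowest in 28D+CA cells.

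Without the acid, 28D cells had 3 members higher and 1 lower than 16D cells (4.51% and 0.829% of all genes). The median of all genes was 0.15 log2 higher in 28D cells, and median-ratio scaling, which moved it by -0.15, gave 1 higher and 3 lower members. With that scaling 650 of all 13266 genes were called, in place of 708. Markers of several cell types moved with this comparison. Endoderm markers summed to 362 to 363 FPKM in 28D cells and 235 to 257 FPKM in 16D cells, with 4 of 7 higher. Pluripotency markers summed to 28.5 to 32.9 and 0.8 to 1.39 FPKM, with 4 of 8 higher, and trophoblast markers to 50.1 to 53.5 and 26.2 to 29.8 FPKM, with 2 of 5 tested higher. Granulosa cell markers summed to 556 to 583 FPKM in 28D cells and 1224 to 1323 FPKM in 16D cells, with 2 of 5 tested lower, and fibroblast markers to 688 to 727 and 434 to 580 FPKM, with 1 of 11 higher. Their part in the members' levels was not tested. Igf2 was at 665 FPKM in both 28D libraries, against 254 and 236 FPKM in 16D cells (1.44 ± 0.12, adjusted p = 0.00146), and Nap1l5 at 4.32 and 4.76 against 11.1 and 11.3 FPKM (-1.14 ± 0.10). Both were called under each scaling and with each library left out. Mirg, a noncoding RNA that hosts microRNAs (9.51 and 7.88 against 4.16 and 2.75 FPKM, 1.13 ± 0.18), and Ppp1r9a (1.08 ± 0.24) lost the call under both other scalings and in 3 of 4 fits without a library each, and Ppp1r9a also with no filter and with the compared groups alone. Only leaving out 16D replicate 1 kept Mirg, and only leaving out 16D replicate 2 kept Ppp1r9a. Peg10 (0.97 ± 0.16), H19 (0.87 ± 0.15) and Dlk1 (-0.97 ± 0.12) had adjusted p-values under 0.05 short of 1 log2, and Dlk1 was called lower under median-ratio scaling (-1.14), while H19 (1.19) and Peg10 (1.15) were called higher under quantile normalization. The 16D replicates differed for some members: Igf2r was at 54.6 and 100.3 FPKM and Peg3 at 0.810 and 4.17 FPKM, and Peg3 had a difference of 1.56 ± 0.47 that was not called (adjusted p = 0.0600). Without 16D replicate 2 it was 2.31 and called, as were Dlk1 and Peg10. The other 9 members did not reach the level for testing in this table, among them Zdbf2, Peg12, Ascl2 and Kcnq1ot1.

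Genes that write, keep and erase imprints were followed beside the members as a list of 22. In PGC against stem cells, 4 of 21 tested rose and 8 fell, beside 16.5% and 14.6% of all genes. Dppa3, which protects methylation in the zygote and marks germ cells, averaged 1931 FPKM in PGC and 17.4 FPKM in stem cells (6.73 ± 0.12). Zfp57 averaged 3.98 FPKM in PGC and 457 FPKM in stem cells (-6.53 ± 0.15). The methyltransferase cofactor Dnmt3l (0.238 and 60.2 FPKM), Uhrf1, which brings the maintenance methyltransferase to new DNA (25.7 and 383 FPKM), the methyltransferase Dnmt3b (3.11 and 43.2 FPKM), Tet1, Tet2, Eed and Zfp445 fell as well, and Dnmt3a, Smchd1 and Hells rose. Dnmt1, the maintenance methyltransferase, averaged 77.8 and 56.2 FPKM and was not called. In lines against GC, 12 of 21 were higher and 1, Tet3, was lower, beside 21.8% and 17.7% of all genes, with Dnmt3l at a mean of 359 FPKM in the lines and 1.72 FPKM in GC and Zfp57 at 202 and 11.3 FPKM. In 28D+CA against 28D cells Dnmt3l alone of 19 was called, at 2.31 and 0.395 FPKM (1.24 ± 0.12).

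Counting without strand would mix members with overlapping transcripts. The labels do not state strand, and exons of Kcnq1ot1 overlap Kcnq1, those of Ube3a Snhg14, those of Gnas Nespas, those of Igf2 Igf2os, those of Mest Copg2, and those of Usp29 Zim3 on the other strand, while Snrpn shares exons with Snurf. Values of these members may hold reads of the partner.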

How the data were processed

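Per the labels' protocols, libraries were made with NEBNext Ultra from RNA extracted by a Qiagen kit. The submitters' processing notes name the build mm10 and Bowtie2, HISAT2, RSEM, R 3.4.2 and DESeq2, without roles. The authors deposited FPKM values in 5 tables, per the file headers. Members were matched by symbol, or by Ensembl ID in the fibroblast table (99.4% of IDs matched GENCODE M21 of GRCm38, which also gave coordinates). The 3 stem cell columns called ES in the induction file carry numbers, but those of 2 of them are also the titles of ES libraries in another file, so they were taken as ESC libraries by group and their numbers only name them. The fibroblast columns could likewise be tied to a group and not to a single library. Every column of per-sample values was used.

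Members and lists were chosen with earlier results of these data known. For each table a linear model of log2(FPKM + 1) with group as its term was fitted to every library by limma 3.58.1 (R 4.3.3, eBayes with trend, two-sided), and p-values were adjusted by Benjamini-Hochberg across genes with 1 FPKM in at least 2 (reprogramming), 1 (lines) or 3 (induction) libraries. There were 14 comparisons. Named are the called members by size (a rule of up to 12 per comparison; those beyond it were named with their values seen) and the heads of imprinted domains; other genes come from 2 fixed lists. In the induction table, 17426 of 17598 genes had FPKM equal to whole reads per coding length in each library (within 0.001 reads). So did 32 of 33 members, all but Phlda2. These genes served in an added voom fit, which therefore did not test Phlda2. Replicates differed by a mean chi-square per gene of 6.80 to 31.7, more than counting noise. Limits from 3 reads cover counting error alone. The test was checked on simulated data. Alternatives were omitting each library in turn, a block for replicate number, fitting only the groups compared, dropping the size limit, the trend or the filter, a pseudocount of 0.1, and scaling by median ratios or quantiles. Promoter windows were searched with pandas 2.3.3, and figures drawn with matplotlib 3.10.9.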

Additional observations from a re-analysis of the deposited data

Results flagged for a closer look

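Among the 6 gPSC lines, 32 members with 1 FPKM in a line were examined for a library far from the others, and 1 was found. Phlda2 was at 17.1 FPKM in line 16, against 6.44 to 10.4 FPKM in the other 5 lines, and the gap to the nearest line took up 0.630 of the whole range, where 0.625 is the critical value for 6 values. Chance flags about 1 in 20 such groups.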

How the results depend on the processing

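For 248 results for named members over all comparisons, 3623 alternative values were made, with 68 calls lost and 42 gained. No result that was called in either fit changed direction. Direction was not compared where a member was called in neither fit. Without a minimum difference the members called were 12 in place of 4 for 28D against 16D, 9 in place of 3 for 28D+CA against 28D, 1 (Grb10) in place of 0 for gPSC4 against ESC, and 26 in place of 17 for gPSC4-EpiLC against gPSC4. For PGC against gPSC4-PGCLC the 1 member called was 0 with no filter, with the compared groups alone and with voom on recovered reads, an alternative chosen after seeing the data. With each library left out in turn the members called were 2 to 7 for 28D against 16D (2 without either 28D library, 7 without 16D replicate 2), 0 for 28D+CA against 28D, 0 to 1 for gPSC4-PGCLC against ESC-PGCLC and for the PGCLC step by origin (1 without ESC-PGCLC replicate 2 or gPSC4-PGCLC replicate 3), and 0 to 1 for PGC against gPSC4-PGCLC. The cause was not tested. Shares of all genes called under the alternative settings are not given here. The counts therefore do not show whether members changed more than other genes. Depth is unknown outside the induction table, so members below 1 FPKM there carry no limit. Same-numbered libraries deviated together only weakly (correlations of deviations -0.03 to 0.16 in the induction table, 0.14 to 0.27 over pairs in the reprogramming table), with 2 pairs a comparison in the second, so numbers were not taken to pair them. With the replicate block 1 member was called in place of 0 for gPSC4-PGCLC against ESC-PGCLC and 5 in place of 4 for 28D against 16D, where Peg3 was added; the other 8 block fits gave the same number as without it. No paired analysis was possible because the numbers of the ESC columns could not be tied to numbered samples (some match the titles of other libraries) for gPSC4 against ESC, ESC-EpiLC against ESC and PGC against stem cells, and because the lines have no number in common with GC.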

Other observations

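Another 31 imprinted genes outside the 40 were followed as a fixed list. In PGC against stem cells 4 of 27 tested rose and 8 fell, where 16.5% and 14.6% of all genes did. Atp10a, a phospholipid flippase, averaged 16.6 FPKM in PGC and 0.723 FPKM in stem cells (3.36 ± 0.16), and Sfmbt2, a Polycomb protein, 23.4 and 2.49 FPKM (2.80 ± 0.26). Ins2, an insulin gene beside Igf2, averaged 9.77 FPKM in PGC and was listed at 0 in the stem cells. Gab1, an adaptor of receptor tyrosine kinases, averaged 27.8 FPKM in PGC and 277 FPKM in stem cells (-3.27 ± 0.11), and the tetraspanin Cd81 335 and 1750 FPKM (-2.38 ± 0.07). Dcn, a fibroblast proteoglycan, averaged 20.6 and 92.2 FPKM (-2.14 ± 0.17). The fibroblast marker sum was also lower in PGC, and the part of fibroblasts in the level of Dcn was not tested. In 28D+CA against 28D cells none of 18 tested was called by limma, with 1 at an unadjusted p under 0.05, beside 2872 of all 13266 genes.

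The 2 fibroblast libraries, in separately normalized tables, listed some members at very different levels. Gnas was at 823 FPKM in the MEF library beside ES and GC and at 4.65 FPKM in the MEF library listed alone, while Igf2 was at 2230 and 1919 FPKM and Mest at 88.1 and 134 FPKM.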
